A study of Mus musculus with 6 samples.

Results

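The troponin genes encode the calcium switch of striated muscle. Troponin C (TnC) binds calcium, troponin I (TnI) inhibits the interaction of actin and myosin, and troponin T (TnT) ties the complex to tropomyosin on the thin filament. Mammals carry separate genes for each subunit that are named after the muscle where the adult protein prevails, fast skeletal, slow skeletal or heart, and developing muscle and cultured myotubes co-express several of them. All 8 troponin genes were followed here, chosen by name and matched from symbol to Ensembl identifier among the 21666 genes of the count matrix: slow Tnnt1 and Tnni1, Tnnc1, which serves slow muscle and heart, cardiac Tnnt2 and Tnni3, and fast Tnnt3, Tnni2 and Tnnc2.

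RNA-seq counts were available for 6 libraries of cultured mouse satellite cells of skeletal muscle, the resident stem cells of muscle fibres, taken on day 2 of differentiation. The cells came from mice with a knockout (KO) of the long noncoding RNA lncMREF, with 3 libraries, and from wild-type (WT) mice, with 3 libraries. Strain, age, sex, the form of the lncMREF allele and whether replicates were separate animals or cultures are not stated in the labels, and the p-values then speak for the scatter among these 6 libraries, possibly technical. The series title links lncMREF to myogenic differentiation and to the Smarca5/p300 complex, and the comparison asks how gene expression differs between the genotypes at this time.

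The matrix held 17919826 to 23646805 counts per KO library and 20193337 to 28430678 per WT library. Cell identity was read from fixed marker lists, by the level summed over a list in each library, in counts per 1000000 counts (CPM). Lower and higher mean an adjusted p under 0.05 in edgeR's quasi-likelihood test, and of all tested genes 33.0% were lower and 33.7% higher. The 8 myogenic markers summed to 1388 to 1408 CPM in KO and 5832 to 6052 CPM in WT. Of these, 6 were lower in KO, among them the muscle intermediate filament gene Des (log2 fold change -2.43). The satellite cell gene Pax7 was the 1 that was higher (0.53, SE 0.1), and Myf5 was not called (-0.15, SE 0.14). Markers of proliferating cells (4 of 4 higher) summed to 307 to 347 CPM in KO and 65.6 to 70.1 CPM in WT, those of macrophages and leukocytes (8 of 8 higher) to 339 to 352 CPM in KO and 105 to 116 CPM in WT, and those of Schwann cells (5 of 6 higher) to 742 to 744 CPM in KO and 201 to 209 CPM in WT. Tyrobp, of the macrophage and leukocyte list, passed the filter on low counts only through its KO libraries. It held 95 to 146 counts in KO libraries and 9 to 13 in WT libraries. Endothelial markers (8 of 8 lower) summed to 74.3 to 80.1 CPM in KO and 305 to 312 CPM in WT, smooth muscle and pericyte markers (5 of 8 lower) to 2240.2 to 2315 CPM in KO and 2777 to 2900 CPM in WT, and fibro-adipogenic markers (4 of 5 lower, 1 higher) to 248.7 to 263 CPM in KO and 329 to 339 CPM in WT. Tagln, of the smooth muscle list, was not called, and 67.9% of its exonic bases are also exonic in another gene. The X-linked RNA Xist stood at 417 to 478 CPM in KO and 152 to 155 CPM in WT. The Y-linked genes did not all move the same way. Ddx3y stood at 33.9 to 37.5 CPM in KO and 57.0 to 66.1 CPM in WT. Eif2s3y stood at 18.3 to 23.1 CPM in KO and 26.3 to 28.8 CPM in WT, and Uty was also lower in every KO library. Kdm5d was higher in every KO library than in any WT library, at most 17.1 CPM in KO and at most 14.9 CPM in WT. The part of these differences in the troponin results was not tested, and in bulk RNA fewer muscle cells and less RNA per muscle cell cannot be told apart. No identifier for lncMREF is named in the labels, so the deleted RNA was not checked in the libraries.

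Of the 8 troponin genes, 7 were lower and 1 was higher in KO (edgeR's quasi-likelihood test, adjusted p under 0.05 over 15518 genes), and the KO and WT libraries did not overlap for any of them. Among all tested genes 66.7% were called in either direction, 33.0% lower and 33.7% higher, and 34.1% had every KO library below every WT library and 35.3% had every KO library above. By the fitted values all 7 that fell did so by over 2-fold, as 9.38% of tested genes did, but the log2 fold changes of Tnni2 and Tnnc1 were -0.85 and -0.95 with library size only, and that of Tnni2 was -0.98 without KO replicate 1 and -0.96 without KO replicate 3. The median log2 fold change was -1.62 over the troponins and 0.021 over all tested genes. Scaling by library size only moved the median of all genes to 0.192 and the share of calls that were higher to 66.1%, in place of 50.5%; it turned no troponin round. All 8 passed the filter on low counts, but Tnnc2 passed through its WT libraries only, and 2 genes, Tnni3 and Tnnc2, held under 30 counts in every library. A second set of count tables, 1 per library, gave Tnnt3, Tnni1, Tnni2, Tnnc1 and Tnnc2 at most 12 counts in any library. By the same edgeR test these tables called only 2 troponin genes lower, Tnnt1 and Tnnt2, and 1 higher, Tnni3 (log2 fold change 0.67, adjusted p 0.0213). All other values here come from the matrix. Together the 8 genes took 0.241 ± 0.0197% of counts in KO and 0.659 ± 0.0157% in WT (SD, n = 3 each).

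**Figure D1:**
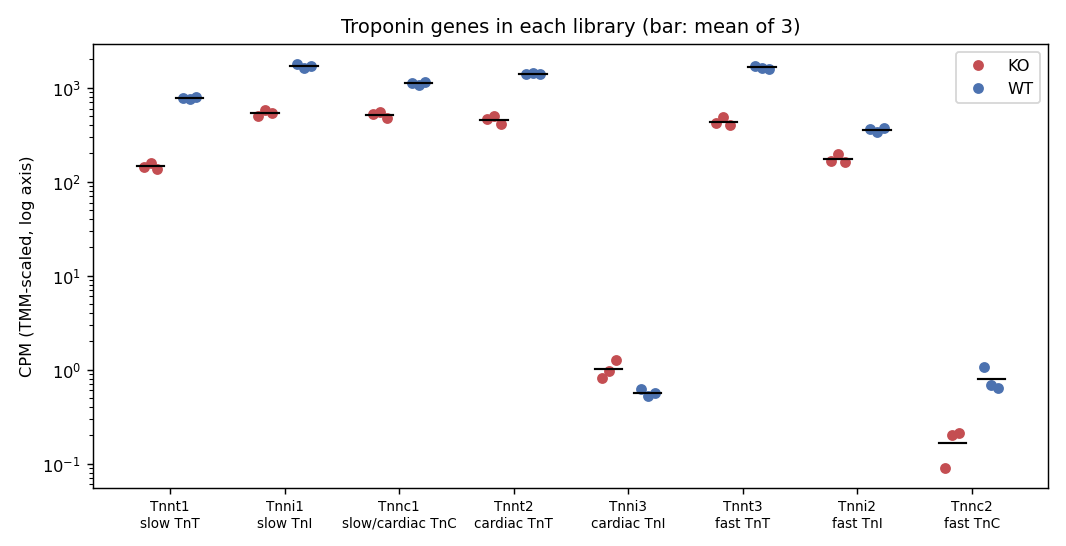
CPM of each troponin gene in every library on a log axis, with KO libraries in red left of WT libraries in blue and a bar at the mean of 3. The slow, cardiac and fast genes with ample counts all sit lower in KO, while Tnni3 and Tnnc2 lie near 1 CPM or below.

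Slow troponin T, Tnnt1 (ENSMUSG00000064179, chromosome 7, 4504570 to 4516382, minus strand, mm10), showed the deepest fall by fitted fold change among the 6 with over 100 counts in every library. Its levels were 144, 157 and 137 CPM in KO replicates 1 to 3, against 772, 759 and 794 CPM in WT replicates 1 to 3. The KO libraries lay within a narrow band far under the WT band. The level was 5.3-fold lower (log2 fold change -2.41, SE 0.05, adjusted p 5.01e-31). Only 1.61% of tested genes had a lower fold change. The log2 fold change of the sparsely counted Tnnc2 (-2.22, SE 0.48) was not separated from that of Tnnt1. Without KO replicate 3 it was -2.38 for Tnnc2 and -2.37 for Tnnt1.

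Slow troponin I, Tnni1 (ENSMUSG00000026418, chromosome 1, 135779434 to 135810989, plus strand), the isoform that fetal heart also uses, had 505, 585 and 532 CPM in KO and 1783, 1606 and 1713 CPM in WT. All 3 KO libraries were below all 3 WT libraries, at a 3.14-fold lower level (log2 fold change -1.65, SE 0.05, adjusted p 2.24e-19).

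Tnnc1 (ENSMUSG00000091898, chromosome 14, 31208312 to 31211729, plus strand), which encodes the troponin C of slow fibres and heart, fell less. It stood at 522, 548 and 475 CPM in KO and at 1132, 1076 and 1159 CPM in WT. The groups were apart, and the level was 2.18-fold lower (log2 fold change -1.12, SE 0.05, adjusted p 1.39e-19).

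The pair of cardiac genes moved in opposite directions, at very different levels. Tnnt2 (ENSMUSG00000026414, chromosome 1, 135836354 to 135852260, plus strand), cardiac troponin T, which embryonic skeletal muscle also makes, had 459.9, 502 and 416 CPM in KO and 1386, 1418 and 1385 CPM in WT. No KO library reached a WT library, and the level was 3.04-fold lower (log2 fold change -1.60, SE 0.05, adjusted p 2.41e-18). Tnni3 (ENSMUSG00000035458, chromosome 7, 4518305 to 4524229, minus strand), adult cardiac troponin I, held 18, 24 and 24 counts in KO and 14, 10 and 15 counts in WT, or 0.815, 0.956 and 1.26 CPM against 0.623, 0.526 and 0.560 CPM. The groups were close but did not overlap, and the level was 1.75-fold higher in KO (log2 fold change 0.81, SE 0.34, adjusted p 0.0389). That call was lost in 7 of 13 alternatives (adjusted p 0.0628 to 0.159), including 5 of the 6 that left out a library: KO replicate 2 (log2 fold change 0.84, adjusted p 0.0646), KO replicate 3 (0.63, 0.159), WT replicate 1 (0.86, 0.0659), WT replicate 2 (0.75, 0.0986) and WT replicate 3 (0.78, 0.1). Over all alternatives the adjusted p ran from 0.0122 to 0.159.

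Defining genes of heart muscle cells were near 0 in both groups. Of 7 such markers, Nkx2-5, Gata4 and Myl7 had no row in the matrix, and the other 4 (Tbx5, Myh6, Nppa and Hand2) summed to 2.55 to 3.16 CPM in KO and 1.63 to 2.45 CPM in WT. For Nppa, 61.5% of the exonic bases are also exonic in another gene, and the part of this in its low counts was not tested. Tbx5 was higher in KO (log2 fold change 1.17, SE 0.38, adjusted p 0.00775) at 0.962 ± 0.176 CPM, against 0.422 ± 0.216 CPM in WT (SD, n = 3 each), and it passed the filter on low counts only through its KO libraries.

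Fast troponin T, Tnnt3 (ENSMUSG00000061723, chromosome 7, 142498836 to 142516009, plus strand), had 424, 483 and 404 CPM in KO and 1708, 1625 and 1599 CPM in WT. Each KO library was far below each WT library, and the level was 3.76-fold lower (log2 fold change -1.91, SE 0.05, adjusted p 9.77e-18). Fast troponin I, Tnni2 (ENSMUSG00000031097, chromosome 7, 142441808 to 142444410, plus strand), had 167, 199.5 and 161 CPM in KO and 363, 335 and 371 CPM in WT. The groups did not overlap, but the 2.02-fold lower level (log2 fold change -1.02, SE 0.08, adjusted p 8.15e-06) was the smallest fall of the 7. Fast and slow genes were therefore interleaved in the size of their fall: Tnnt1, Tnnt3, Tnni1, Tnnt2, Tnnc1 and Tnni2 in that order of fold change among the 6 with over 100 counts in every library.

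Fast troponin C, Tnnc2 (ENSMUSG00000017300, chromosome 2, 164777161 to 164779967, minus strand), was almost uncounted. It held 2, 5 and 4 counts in KO and 24, 13 and 17 counts in WT, or 0.0906, 0.199 and 0.211 CPM against 1.07, 0.684 and 0.634 CPM. The KO libraries were all lower (log2 fold change -2.22, SE 0.48, adjusted p 0.00014). Of its 800 exonic bases, 74% are also exonic in Ube2c, a ubiquitin-conjugating enzyme of mitosis on the opposite strand, which leaves 208 bases of its own. Whether counting used strand is not stated in the sources at hand, and without strand reads from the shared bases cannot be assigned to either gene. Ube2c itself stood at 40.9 ± 2.41 CPM in KO and 8.58 ± 1.28 CPM in WT (SD, n = 3 each; log2 fold change 2.24, SE 0.09, adjusted p 5.64e-22). Protein-coding genes that share at least 60% of their exonic bases had low values in general. Of 523 such annotated genes, 211 were in the matrix, with a median of 0.5 CPM, against a median of 18 CPM over 10188 genes that share none. The part of the overlap in the Tnnc2 counts was not tested, and the fold change, levels, ratios and shares given for Tnnc2 are those of its counts as deposited.

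The other troponin genes did not have this overlap. Tnni3 shares 4.17% of its exonic bases with Dnaaf3 and the remaining 6 share none. Between transcripts of genes for the same subunit, the longest identical run was 22 bases, between Tnni1 and Tnni2. Over all 28 pairs of troponin genes the longest was 53 bases, between annotated transcripts of Tnnt2 and Tnni1. The annotation lists 27 transcripts of Tnnt3, 15 of Tnnt2 and 13 of Tnnt1, and counts per gene do not separate their splice forms.

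The troponin genes were ordered by level as TPM, which divides counts by the gene's exonic length and scales each library's total to 1000000. TPM was not TMM-scaled, and for the 7 genes that fell the fall by TPM is smaller than the fitted one. TPM values therefore serve here for order, ratios and shares within a genotype or library. In KO the order was Tnnc1 at 1846 ± 123 TPM, Tnnt3 at 1031 ± 89.1, Tnni1 at 561 ± 38.9, Tnni2 at 439 ± 48.8, Tnnt1 at 248 ± 15.2, Tnnt2 at 221 ± 19.3, Tnni3 at 1.83 ± 0.423 and Tnnc2 at 0.779 ± 0.309 TPM (SD, n = 3). In WT it was Tnnc1 at 3187 ± 44.9 TPM, Tnnt3 at 3073 ± 152, Tnni1 at 1397 ± 62.7, Tnnt1 at 1040 ± 5.15, Tnni2 at 703 ± 21.8, Tnnt2 at 533 ± 20.8, Tnnc2 at 2.94 ± 0.893 and Tnni3 at 0.817 ± 0.0685 TPM (SD, n = 3). The library ranges of Tnnt1 and Tnnt2 overlapped in KO and those of Tnnc1 and Tnnt3 overlapped in WT, so neither of these neighbours in the order was separated. Fast Tnni2 thus stood above slow Tnnt1 in KO and below it in WT. With the longest annotated transcript as the length, the WT mean of Tnnt2 (989 ± 36.6 TPM) came above that of Tnni2 (937 ± 29.9 TPM). For Tnnt2, 7752 exonic bases are annotated but its longest transcript has 3330. The lowest WT library for Tnnt2 and the highest for Tnni2 both read 956.8 TPM as rounded, so this pair was not clearly separated. With only exonic bases shared with no other gene, a length chosen after seeing the data, the order of the last 2 in KO turned. Tnnc2 was then at 2.83 ± 1.12 TPM and Tnni3 at 1.81 ± 0.417 TPM, with overlapping library ranges.

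The question of slow, cardiac and fast isoforms was put as 5 ratios within each library, where library scaling cancels. The log2 ratio of fast Tnnt3 to slow Tnnt1 was 2.03, 2.10 and 2.03 in KO and 1.62, 1.57 and 1.49 in WT, a difference of 0.49. The log2 ratio of fast Tnni2 to slow Tnni1 was -0.33, -0.29 and -0.46 in KO and -1.03, -1.0 and -0.94 in WT, a difference of 0.63. Both ratios were higher in every KO library than in any WT library, so the slow gene fell further than its fast counterpart in both TnT and TnI. The log2 ratio of cardiac Tnnt2 to slow Tnnt1 was -0.14, -0.14 and -0.22 in KO and -0.97, -0.91 and -1.01 in WT, a difference of 0.80, again with no overlap.

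The remaining ratios rest on the sparsely counted genes. Tnni3 over Tnni1 had a log2 ratio of -8.28 ± 0.32 in KO and -10.74 ± 0.05 in WT (SD, n = 3 each), and Tnnc2 over Tnnc1 one of -11.30 ± 0.71 in KO and -10.12 ± 0.41 in WT. For each of the 5 ratios the two-sided exact permutation p was 0.1, and 0.1 after Benjamini-Hochberg adjustment over the 5, which is the smallest p that this test allows for 3 against 3 libraries, so it cannot reach 0.05 for a ratio.

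**Figure D2:**
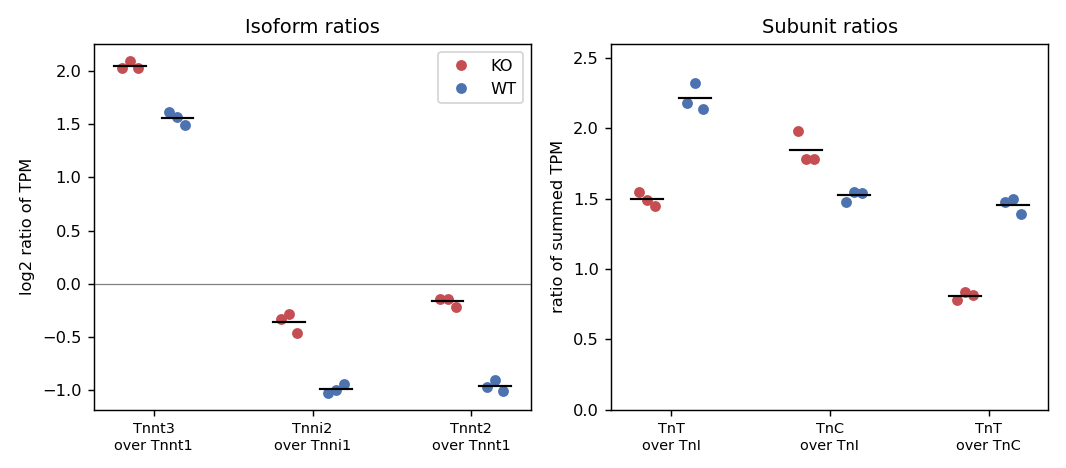
Left, log2 ratio of TPM between troponin genes in each library, with KO in red left of WT in blue and a bar at the mean of 3. Right, ratio of TPM summed over the genes of a subunit. KO libraries lie above WT libraries in the 3 isoform ratios drawn and below them in TnT over TnC, 0.783 to 0.837 against 1.39 to 1.5. Of the isoform ratios not drawn, which rest on sparse counts, Tnni3 over Tnni1 was higher in KO and Tnnc2 over Tnnc1 was lower.

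Shares of each subunit's TPM show the same libraries from another side. Slow Tnnt1 made 16.5 ± 0.336% of TnT transcripts in KO and 22.4 ± 0.763% in WT, and cardiac Tnnt2 made 14.7 ± 0.342% in KO and 11.5 ± 0.333% in WT. Fast Tnnt3 made 68.7 ± 0.478% in KO and 66.1 ± 0.949% in WT (SD, n = 3 each), but by counts without length its share was 41.9% in KO and 43.1% in WT, so the direction for Tnnt3 depends on the length used. Fast Tnni2 made 43.7 ± 1.59% of TnI transcripts in KO and 33.5 ± 0.685% in WT, slow Tnni1 the rest apart from 0.184 ± 0.0482% of Tnni3 in KO and 0.0388 ± 0.00184% in WT. With counts in place of TPM the Tnni2 share was 24.5% in KO and 17.3% in WT, the same direction.

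**Figure D3:**
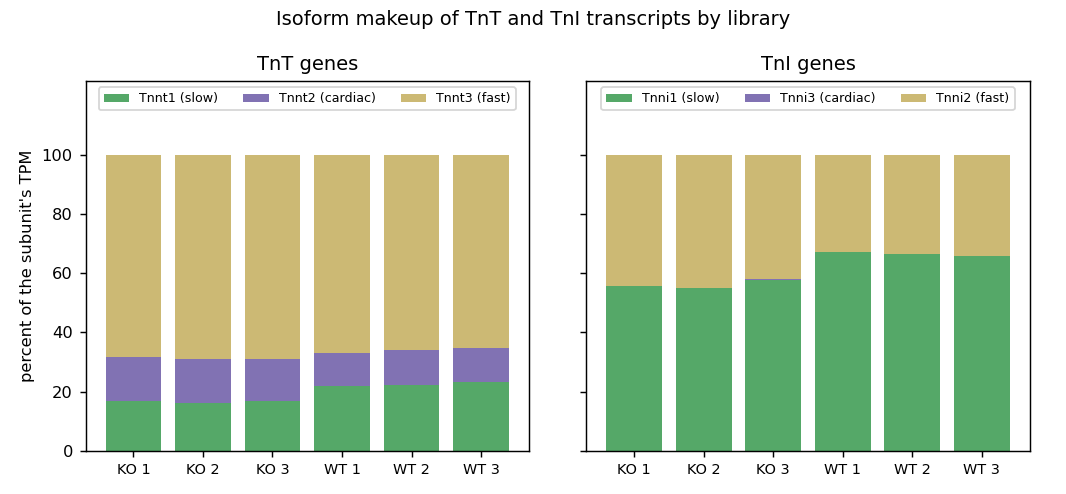
Stacked bars of the percent of TnT (left) and TnI (right) TPM from the slow, cardiac and fast gene in each library, KO libraries left of WT libraries. The fast Tnni2 segment spans 42.0% to 45.0% in KO and 32.8% to 34.2% in WT, and the Tnni3 segment is too thin to see.

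The subunits did not fall evenly by TPM, which understates the fitted falls. Summed over their genes, TnT transcripts were at 1499 ± 123 TPM in KO and 4646 ± 169 TPM in WT, TnI at 1001 ± 84.4 TPM in KO and 2100 ± 79.9 TPM in WT, and TnC, nearly all of it Tnnc1, at 1847 ± 123 TPM in KO and 3190 ± 45.4 TPM in WT (SD, n = 3 each). TnT over TnI was 1.45 to 1.55 in KO and 2.14 to 2.32 in WT, and TnT over TnC was 0.783 to 0.837 in KO and 1.39 to 1.5 in WT. With the longest transcript as length the TnT over TnC values were 0.922 to 0.982 in KO and 1.65 to 1.77 in WT. The limit on Tnnc2 from its overlap with Ube2c applies to the TnC sums.

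Most troponin genes lie in neighbouring pairs of one TnI and one TnT gene: Tnni3 with Tnnt1, Tnni1 with Tnnt2, and Tnni2 with Tnnt3. Tnnt1 and Tnni3, 1.92 kb apart on the same strand, had log2 fold changes of -2.41 and 0.81. Tnni1 and Tnnt2, 25.4 kb apart with Lad1, an epidermal anchoring protein, between them, were at -1.65 and -1.60. Tnni2 and Tnnt3 were at -1.02 and -1.91.

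Within 50 kb of a troponin gene, 24 other genes were tested, of which 9 were lower, 9 were higher and 6 were not called (median log2 fold change 0.01). Of all tested genes 33.0% were lower, 33.7% were higher and 9.38% were lower by over 2-fold. With library size as the only scaling, 6 neighbours were lower and 12 higher, with a median of 0.18. That scaling moves the median of all genes to 0.192. The neighbours that fell over 2-fold were 4: Syt8, a synaptotagmin 1.41 kb from Tnni2 (-1.95, SE 0.24, adjusted p 1.05e-08), the noncoding Nctc1 28.6 kb from Tnnt3 (-1.76, SE 0.18, adjusted p 7.16e-10), Lad1 (-1.70, SE 0.40, adjusted p 0.000465) and the scavenger receptor Stab1 39.7 kb from Tnnc1 (-1.25, SE 0.09, adjusted p 2.38e-14). Lad1, which passed the filter on low counts only through its WT libraries, and Syt8 were sparse, at 0.473 ± 0.413 and 0.853 ± 0.178 CPM in KO and 1.46 ± 0.268 and 3.31 ± 0.266 CPM in WT.

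Smaller falls were those of Pkp1, a desmosomal plakophilin (-0.82), and Prr33 (-0.60), whose body overlaps Tnnt3 on the other strand with no shared exonic bases. Phlda3 (-0.20), Zswim1 (-0.24) and Bap1 (-0.16) were also lower, and these 3 calls were lost with library size only (-0.03, -0.07 and 0.01). Besides Ube2c, the higher neighbours were Sema3g, a semaphorin (0.84), Eps8l1 (0.57), Dnaaf3, an axonemal dynein assembly factor (0.47), Ppp1r12c, a myosin phosphatase subunit (0.46), Lsp1, a leukocyte actin-binding protein (0.37), the mitochondrial ribosomal gene Mrpl23 (0.33), Csrp1 (0.32) and Phf7 (0.32). Lsp1 lies between Tnni2 and Tnnt3, and it was higher at 195 ± 8.83 CPM in KO, against 151 ± 2.32 CPM in WT. Syt5 (-0.35), Zswim3 (-0.20), Dnttip1 (0.15), Snx21 (0.13), Nisch (0.02) and Acot8 (0.00) were not called, with adjusted p-values from 0.0908 to 0.975.

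**Figure D4:**
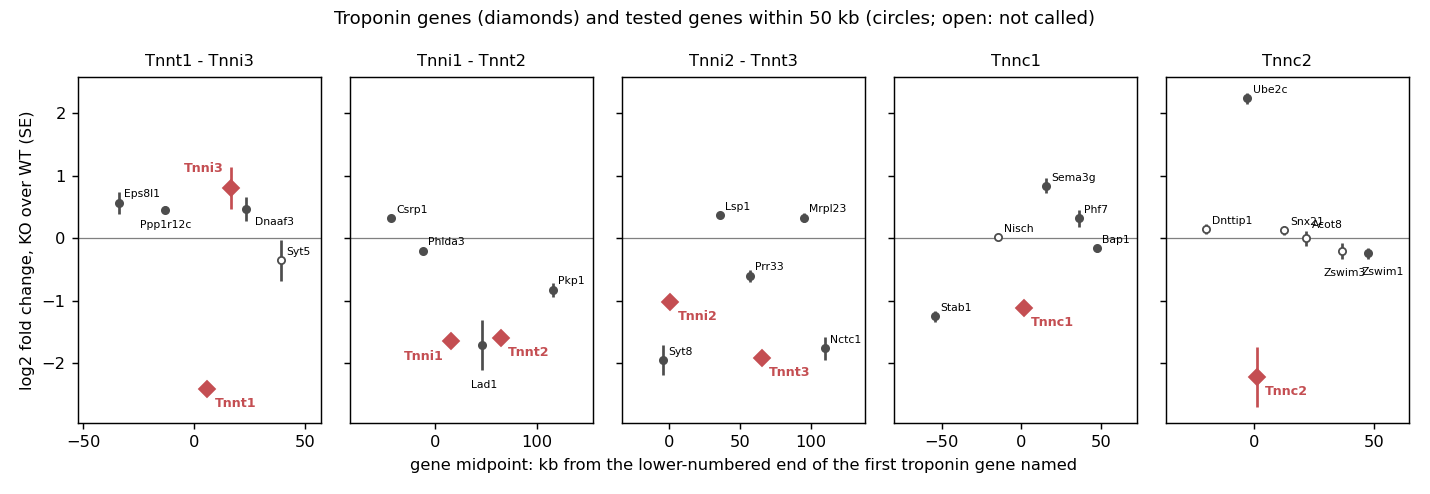
Log2 fold change with SE of each troponin gene (red diamond) and of every tested gene within 50 kb (grey circle, open where not called), by distance of the gene's midpoint in kb, 1 panel per locus. Troponin genes other than Tnni3 lie at -1.02 or lower, while the 24 neighbours spread around 0.

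Promoter stretches of the genes with ample counts are shown because their transcripts fell together, with Tnni3 beside them as the member that did not fall. They run from 250 bases before to 50 bases after a RefSeq start (GRCm38.p6), 5′ to 3′ on the gene's strand, with capitals for CANNTG (the E-box bound by myogenic factors such as MyoD), CATTCC or its reverse complement (the MCAT element bound by Tead factors) and TATAAA or its reverse complement. The table held 8 entries for 6 of the 8 genes, and Tnni2 and Tnnt3 had none. For Tnnt2 and Tnni1 the first of their entries is printed.
Tnnt1, chr7:4515926-4516225, minus strand: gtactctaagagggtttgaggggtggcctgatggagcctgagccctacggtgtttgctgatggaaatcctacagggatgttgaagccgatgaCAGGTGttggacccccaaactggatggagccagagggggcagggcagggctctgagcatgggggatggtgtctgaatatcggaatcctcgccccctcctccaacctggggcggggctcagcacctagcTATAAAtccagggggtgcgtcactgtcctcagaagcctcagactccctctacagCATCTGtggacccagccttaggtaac
Tnni1, chr1:135799171-135799470, plus strand: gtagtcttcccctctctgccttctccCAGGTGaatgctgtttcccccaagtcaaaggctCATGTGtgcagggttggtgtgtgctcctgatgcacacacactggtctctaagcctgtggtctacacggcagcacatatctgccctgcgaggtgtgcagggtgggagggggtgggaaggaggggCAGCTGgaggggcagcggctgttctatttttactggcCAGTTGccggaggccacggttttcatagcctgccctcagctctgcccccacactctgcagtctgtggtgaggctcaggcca
Tnnc1, chr14:31208062-31208361, plus strand: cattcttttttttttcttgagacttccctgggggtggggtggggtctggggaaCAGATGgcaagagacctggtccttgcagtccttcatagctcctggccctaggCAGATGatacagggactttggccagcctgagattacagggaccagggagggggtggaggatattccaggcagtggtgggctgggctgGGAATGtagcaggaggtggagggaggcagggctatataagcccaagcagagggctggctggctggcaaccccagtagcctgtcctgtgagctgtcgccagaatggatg
Tnnt2, chr1:135836084-135836383, plus strand: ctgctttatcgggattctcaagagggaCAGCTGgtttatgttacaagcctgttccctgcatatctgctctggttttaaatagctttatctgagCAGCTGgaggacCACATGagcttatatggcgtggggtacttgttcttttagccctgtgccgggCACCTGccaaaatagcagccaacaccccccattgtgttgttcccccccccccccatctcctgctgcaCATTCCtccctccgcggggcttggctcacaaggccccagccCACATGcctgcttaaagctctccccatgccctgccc
Tnni3, chr7:4522479-4522778, minus strand: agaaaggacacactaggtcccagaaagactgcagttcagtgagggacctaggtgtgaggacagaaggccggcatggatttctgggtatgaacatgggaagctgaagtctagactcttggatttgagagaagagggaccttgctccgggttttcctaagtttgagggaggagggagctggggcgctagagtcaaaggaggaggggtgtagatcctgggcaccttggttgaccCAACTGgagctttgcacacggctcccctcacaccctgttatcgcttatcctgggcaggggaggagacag

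At least 2 CANNTG matches were present in the printed stretches of Tnnt1 (2), Tnni1 (4), Tnnc1 (2) and Tnnt2 (5), and 1 was present in that of Tnni3. The entries not printed, for Tnnc2 and the other starts of Tnnt2 and Tnni1, hold 2 each. CANNTG reads alike on both strands, and no match overlapped another. Of all 32851 promoter entries, 39.6% hold at least 2. The Tnnt2 match to CATTCC begins 27 bases before the start and the Tnnc1 match to its reverse complement 58 bases before it, and 14.7% of all entries hold such a match. TATAAA occurs in Tnnt1 at 30 bases before the start, and 13.6% of all entries hold it on either strand. The MEF2 motif had no match in these windows and has one in 3.19% of all entries. A match is a description of letters only.

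Of 24 thin filament partners, 20 were lower and 3 were higher (median log2 fold change -1.66). Beside this and the lists below, 33.0% of all tested genes were lower and 33.7% were higher. The lower partner Kbtbd13 passed the filter on low counts only through its WT libraries. It held 8 to 15 counts in KO libraries and 46 to 90 in WT libraries. The Kelch protein Klhl41, which stabilises thin filaments, was at 67.8 ± 1.47 CPM in KO and 443 ± 8.15 CPM in WT (-2.71, SE 0.04, adjusted p 5.79e-33). Ldb3, a Z-disc protein, changed by -2.10 (SE 0.04) and myopalladin, Mypn, by -2.60 (SE 0.05). The members that rose were the tropomodulins Tmod2 (1.0, SE 0.12) and Tmod3 (0.26, SE 0.06), which cap actin filaments outside muscle too, and the tropomyosin Tpm3 (0.29, SE 0.04), whose gene encodes slow muscle and cytoskeletal forms.

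Both fibre-type lists were lower. All 15 fast fibre genes fell (median -2.12). The smallest p-values were those of the myosin heavy chain Myh4 at 4.56 ± 0.684 CPM in KO and 169.9 ± 4.2 CPM in WT (-5.21, SE 0.07), the calcium pump Atp2a1 (-3.05, SE 0.04; 21.9% of its exonic bases are shared) and the calcium store protein Casq1 (-2.81, SE 0.05). Of 14 tested slow fibre genes of 16, 13 were lower and Tpm3 was higher (median -1.23). The smallest p-values were those of the pump Atp2a2 (-2.01), the myosin-binding protein Mybpc1 (-2.04) and the light chain Myl6b (-1.91, SE 0.05). No test of a difference between these lists was made. With library size only, the counts were 15 lower for the fast list and 12 lower and 1 higher for the slow list, and 19 lower and 3 higher for the thin filament partners.

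Of 9 tested cardiac and fetal contractile genes of 14, 8 were lower, and the smallest p-values were those of the neonatal and embryonic myosins Myh8 (-2.38, SE 0.05) and Myh3 (-2.59, SE 0.05) and the actin-binding Xirp1 (-2.44, SE 0.05). The natriuretic peptide gene Nppb was higher (2.13, SE 0.44) at 1.13 ± 0.397 CPM in KO and 0.256 ± 0.171 CPM in WT, and it passed the filter on low counts only through its KO libraries. All 19 genes of calcium release and uptake, which supplies the ion that troponin C binds, were lower (median -2.01), and Atp2a1, Casq1 and sarcalumenin, Srl (-2.39, SE 0.04), had the smallest p-values. With library size only, 18 of them were lower.

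**Figure D5:**
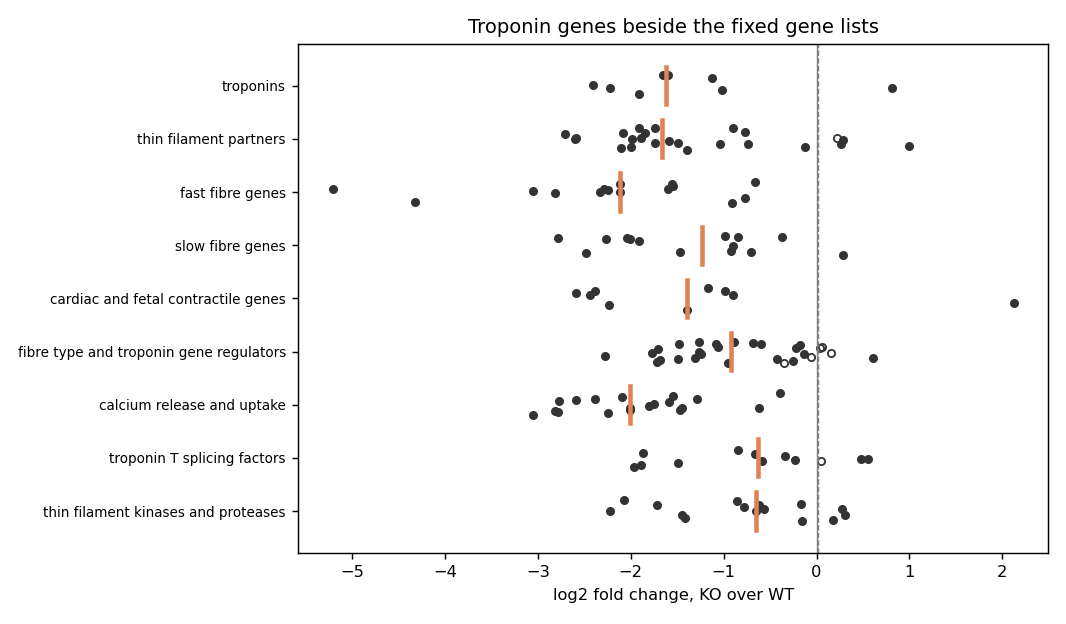
Log2 fold change of each tested gene of the troponin set and of 8 fixed lists, 1 row per list, filled where called and open where not, with an orange bar at the list's median and a dashed line at the median of all tested genes, 0.021. List medians run from -2.12 for fast fibre genes to -0.63 for splicing factors, and the troponin median is -1.62.

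Regulators of fibre type and of troponin genes were mostly lower. Of 28, 22 were lower and 1 was higher (median -0.92), with the smallest p-values for the transcription factors Mef2c (-1.71, SE 0.04), Mef2a (-1.77, SE 0.05) and Myod1 (-1.69, SE 0.05) and the calcineurin-dependent factor Nfatc4 higher (0.61, SE 0.06). With library size only, 18 were lower and 4 were higher. Sox6, a repressor of slow fibre genes, was at 30.9 ± 1.80 CPM in KO and 30.1 ± 1.04 CPM in WT (0.04, SE 0.07, adjusted p 0.641), but it was called higher with library size only (0.21, adjusted p 0.00661).

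Of 12 tested splicing factors known or studied for troponin T exons, 9 were lower and 2 were higher (median -0.63). Rbm24 (-1.96, SE 0.06), Rbm38 (-1.49, SE 0.05; 13.4% of its exonic bases are shared) and Rbm20 (-1.89, SE 0.07) fell, and the repressor Ptbp1 (0.48, SE 0.04; 20.7% shared) and Mbnl3 (0.55, SE 0.17) rose. Of 15 kinases and proteases that act on troponin or the thin filament, 12 were lower and 3 were higher (median -0.65). The calmodulin kinases Camk2a (-2.07, SE 0.06) and Camk2b (-1.72, SE 0.06) and the protein kinase A subunit Prkaca (-1.45, SE 0.05) fell, whereas the protein kinase C genes Prkca (0.31, SE 0.07) and Prkcd (0.27, SE 0.05) and the ubiquitin ligase Trim32 (0.18, SE 0.06) rose. With library size only, 8 splicing factors were lower and 3 higher, and 10 kinases and proteases were lower and 3 higher.

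The genes whose profile over the 6 libraries lay closest to a troponin were sought among 9692 genes of at least 10 CPM, by the root mean square difference in gene-centred log2 CPM. With only 2 genotypes this measure mostly reads the size of the fold change. Nearest to Tnnc1 were Smpx, a small muscle protein (0.027), Pmaip1 (0.0433) and Tnfrsf23 (0.0493). Nearest to Tnnt2 were Ell2 (0.0602), Zfp106 (0.0637) and Mfap3l (0.0656). Nearest to Tnnt3 were Sgca, the alpha-sarcoglycan of the dystrophin complex (0.0324), Fndc5 (0.0522) and the thin filament leiomodin Lmod2 (0.0589). Sgca was at 17.3 ± 1.41 CPM in KO and 63.4 ± 0.353 CPM in WT.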

How the data were processed

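Total RNA was extracted with TRIzol and sequenced on an Illumina instrument, per the labels' protocols. HISAT2 2.2.1, featureCounts 2.0.1 and mm10 were used, per the submitters' processing notes; no annotation release, counting option or strand setting is stated there. Raw counts for each Ensembl gene were deposited as a matrix of 21666 genes and as a table per library. The matrix was used throughout. The tables give other counts (Tnnt3 has 0 to 3 there, against 7672 to 42860 in the matrix) and served as an alternative. The submitters' titles set the groups.

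Symbols, lengths, overlaps (bedtools 2.31.1) and 1-based coordinates come from GENCODE M21, of the same build; 21632 genes matched. Genes passing filterByExpr (minimum count 10, minimum total count 15) were tested by edgeR 4.0.16 (R 4.3.3): TMM scaling, robust quasi-likelihood F-test, genotype only, Benjamini-Hochberg adjustment over 15518 genes. SE is the fold change over the root of F. CPM is TMM-scaled. Alternatives were DESeq2 1.42.0, limma 3.58.1, other scalings, no filter, a replicate block and leaving out each library. No pair of replicates agreed within sampling noise (mean chi-square per gene 3.18 to 5.11). The planned protein comparison was not made. Members, lists and the naming rule (the 3 smallest p-values per list and up to 5 called members of opposite direction, all tested neighbours, and the nearest profiles) were chosen with earlier results of these data known.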

Additional observations from a re-analysis of the deposited data

How the results depend on the processing

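The fall of the 7 troponin genes kept its direction and call under all 12 alternatives computed on the matrix, with log2 fold changes of -2.46 to -2.23 for Tnnt1, -1.99 to -1.74 for Tnnt3, -1.71 to -1.48 for Tnni1, -1.67 to -1.43 for Tnnt2, -1.17 to -0.95 for Tnnc1, -1.12 to -0.85 for Tnni2 and -2.39 to -1.93 for Tnnc2. The number called higher, 1 for Tnni3, was 0 with no low-count filter and with DESeq2, and 0 to 1 when a library was left out. The cause was not tested. With the replicate number as a block 7 troponins were lower and 1 higher, so no troponin call changed, and 10209 genes were called in place of 10353. Deviations of same-numbered libraries correlated at -0.019 to -0.005 and those of different-numbered ones at -0.009 to 0.022. Same-numbered libraries thus shared no visible deviation, but whether they were paired by design is not stated in the labels.

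The per-library tables called 2 troponins lower and 1 higher, Tnni3 (0.67), 5436 genes in all and 29 of the listed genes lower in place of 110. In them Tnnt1 changed by -2.38 and Tnnt2 by -0.19, the difference in the log2 ratio of Tnnt2 over Tnnt1 was 2.19 in place of 0.80, and that of Tnni3 over Tnni1 turned to -1.96. The fast share was 0% in KO and 0.0334% in WT for TnT and 10.2% in KO and 0.958% in WT for TnI; zero counts gave no ratio for the fast genes and no TnC share in every library. The cause was not tested. Length sets the other shares: for TnT, 59.5% in KO and 57.0% in WT with the longest transcript and 41.9% in KO and 43.1% in WT with counts, for TnI, 24.5% in KO and 17.3% in WT with counts, and for TnC, 0.163% in KO and 0.354% in WT with unshared bases, an alternative chosen after seeing the data, in place of 0.0425% in KO and 0.0922% in WT.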
